A study of Mus musculus with 5 samples.

Results

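This account concerns 8 genes of the hepatocyte, the main cell of the liver: Alb, Afp, Ttr, Apob, Tat, Fgb, Fga and F9. They were chosen by the gene names that the deposited peak annotations give, with the peaks of these data already known, out of 21887 protein-coding genes in the RefSeq table of the same build. A gene was followed through 3 deposited annotation tables, which give each peak the gene with the nearest transcription start site (TSS). Of the 8 genes, 3 were assigned a peak (Apob, F9 and Ttr) and 5 were assigned none (Alb, Afp, Fga, Fgb and Tat). The assignments are therefore a description and carry no test. Of the 8 products, 7 are secreted into plasma. Tat is the exception, since it encodes tyrosine aminotransferase, an enzyme of the cytosol.

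The peaks came from ChIP-seq of Nr1d1 in mouse Th1 cells, in 5 libraries from wild-type C57BL/6 mice: 3 Nr1d1 ChIP libraries, 1 IgG mock and 1 input. Naive CD4 T cells of mice aged 4 to 6 weeks were activated through CD3 and CD28, given IL-12, IFNγ and anti-IL4 antibody, harvested after 3 to 4 days and fixed for 30 minutes in 1% formaldehyde. Each antibody has a single peak list over the input, with 19586 peaks for the ChIP and 17111 for IgG. Of the ChIP peaks, 14471 had no base in common with an IgG peak and are called ChIP-specific here, and the other 5115 are called shared. The lists hold no read counts and no value per library, so neither depth nor spread between libraries is known, and no difference between the lists was tested. Binding sites carry no expression values, so the Th1 label could not be checked against marker genes.

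Nr1d1 (REV-ERBα) is a nuclear receptor that represses transcription. It binds an AGGTCA half-site preceded by an A/T-rich stretch, the RORE, as a monomer, and it also reaches chromatin through other factors. In liver it takes part in the daily rhythm of lipid and bile acid metabolism. The 8 genes are transcribed strongly in hepatocytes of the adult or, for Afp, the fetus, under factors such as HNF1, HNF4 and C/EBP proteins.

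None of the peaks assigned to the 8 genes was classed as promoter. Over the whole lists, 6.37% of annotated ChIP peaks and 5.46% of annotated IgG peaks were. The RefSeq promoter table (GRCm38.p6), which gives 250 bases before and 50 after each start, held 7 of the 8 genes, and 0 of these 7 windows had a base under a ChIP peak or under an IgG peak. The share of all windows in the table under a peak was not computed, so nothing is read from this count. The sequences below show what the windows of 5 of the 7 genes hold, from 250 bases before the start to the first 10 transcribed bases, 5′ to 3′ on the gene's strand. Capitals mark a match, on either strand, to the half-site AGGTCA or to GTTAATNAT, a part of the HNF1 site. Apob is shown as the gene with the most peaks, F9 as a second gene with an assigned peak, and Alb, Afp and Fga as genes without one whose windows hold a match. Fgb and Tat, also genes without an assigned peak, had no match in their windows and are not shown.
Apob, chr12:7977427-7977686, plus strand: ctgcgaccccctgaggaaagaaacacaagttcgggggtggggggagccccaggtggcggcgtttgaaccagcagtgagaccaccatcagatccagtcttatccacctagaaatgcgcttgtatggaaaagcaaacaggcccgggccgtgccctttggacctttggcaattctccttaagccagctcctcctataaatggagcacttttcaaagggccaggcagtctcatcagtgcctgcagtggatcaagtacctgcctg
F9, chrX:59999214-59999473, plus strand: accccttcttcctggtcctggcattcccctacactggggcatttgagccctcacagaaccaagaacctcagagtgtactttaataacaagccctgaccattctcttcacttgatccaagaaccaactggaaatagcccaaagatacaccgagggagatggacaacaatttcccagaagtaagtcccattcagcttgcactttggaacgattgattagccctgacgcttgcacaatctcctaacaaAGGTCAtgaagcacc
Alb, chr5:90460620-90460879, plus strand: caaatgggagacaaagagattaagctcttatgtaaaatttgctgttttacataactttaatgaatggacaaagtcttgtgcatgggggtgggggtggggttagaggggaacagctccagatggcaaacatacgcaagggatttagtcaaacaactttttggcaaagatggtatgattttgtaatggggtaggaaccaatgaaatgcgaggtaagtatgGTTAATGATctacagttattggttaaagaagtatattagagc
Afp, chr5:90490464-90490723, plus strand: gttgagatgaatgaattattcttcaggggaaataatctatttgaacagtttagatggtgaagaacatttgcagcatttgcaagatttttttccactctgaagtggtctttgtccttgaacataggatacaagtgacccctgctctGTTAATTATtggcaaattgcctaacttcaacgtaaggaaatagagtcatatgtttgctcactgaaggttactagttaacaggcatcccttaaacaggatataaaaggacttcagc
Fga, chr3:83025903-83026162, plus strand: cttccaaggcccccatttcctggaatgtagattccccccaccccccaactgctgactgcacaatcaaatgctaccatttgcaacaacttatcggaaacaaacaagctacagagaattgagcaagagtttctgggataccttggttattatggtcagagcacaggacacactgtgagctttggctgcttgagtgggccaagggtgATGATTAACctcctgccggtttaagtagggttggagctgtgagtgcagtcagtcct

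F9 was the 1 gene of 7 with AGGTCA in the window of 300 bases, starting 5 bases before the TSS. The half-site was in 14.7% of 21263 promoters of protein-coding genes in the table. The longer form ANTAGGTCA, which contains the half-site, was in 0.517% of promoters and in 0 of the 7. GTTAATNAT was in 0.720% of promoters and in 3 of the 7, at Alb (starting 32 bases before the TSS), Afp (105 bases before) and Fga (on the opposite strand, its match starting 46 bases before). These matches describe letters in the windows and are not measured sites.

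Apob encodes apolipoprotein B, the structural protein of very-low-density and low-density lipoproteins. It was assigned 3 ChIP-specific peaks, 1 shared ChIP peak and 7 IgG peaks. The ChIP-specific peaks lay on both sides of the gene and inside it. The first was intergenic (chr12:7937326-7937649, 325 bp, FDR 0.0088), 40161 bp upstream of the annotated TSS. The second lay in an intron (chr12:7999201-7999449, 250 bp, FDR 0.0086). The annotation measured it as 13034 bp upstream of a transcript that starts near the 3′ end of the gene, and from the RefSeq start of Apob it was 21648 bp downstream. The third was intergenic (chr12:8066576-8066849, 275 bp, FDR 0.0137), 54353 bp downstream of that same late transcript start, and it lay within the noncoding gene Gm33037.

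The shared peak was in an intron near the 3′ end of Apob (chr12:8013676-8014024, 350 bp, FDR 0.00297). Its annotated distance was 1491 bp, but it was 36173 bp downstream of the RefSeq start. An IgG peak (chr12:8013726-8014024, 300 bp, FDR 0.00148) covered 299 bases of it. This was the ChIP peak with the lowest FDR at the gene, and the 3 ChIP-specific peaks had higher FDRs. The nearest IgG peak was 15552 bp from the first ChIP-specific peak, 11252 bp from the second and 19602 bp from the third.

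The IgG peak nearest to the start of Apob was intronic, 1735 bp downstream of the RefSeq TSS (chr12:7979301-7979524, FDR 0.00148). No ChIP peak lay as near to that start. A further IgG peak inside the gene was classed as a transcription termination site (chr12:7987751-7987949, FDR 0.000934). Of the remaining 4 IgG peaks outside the gene, 1 lay upstream with an FDR printed as 0 (chr12:7921451-7921774, 56036 bp from the TSS) and 3 lay downstream with FDRs of 0.0185, 0.0364 and 0.0423. With IgG the gene body thus held 3 peaks, against 2 with the ChIP. At least 7 IgG peaks were assigned to 157 of the 21887 genes (0.717%), and at least 3 ChIP-specific peaks to 594 (2.71%).

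**Figure D1:**
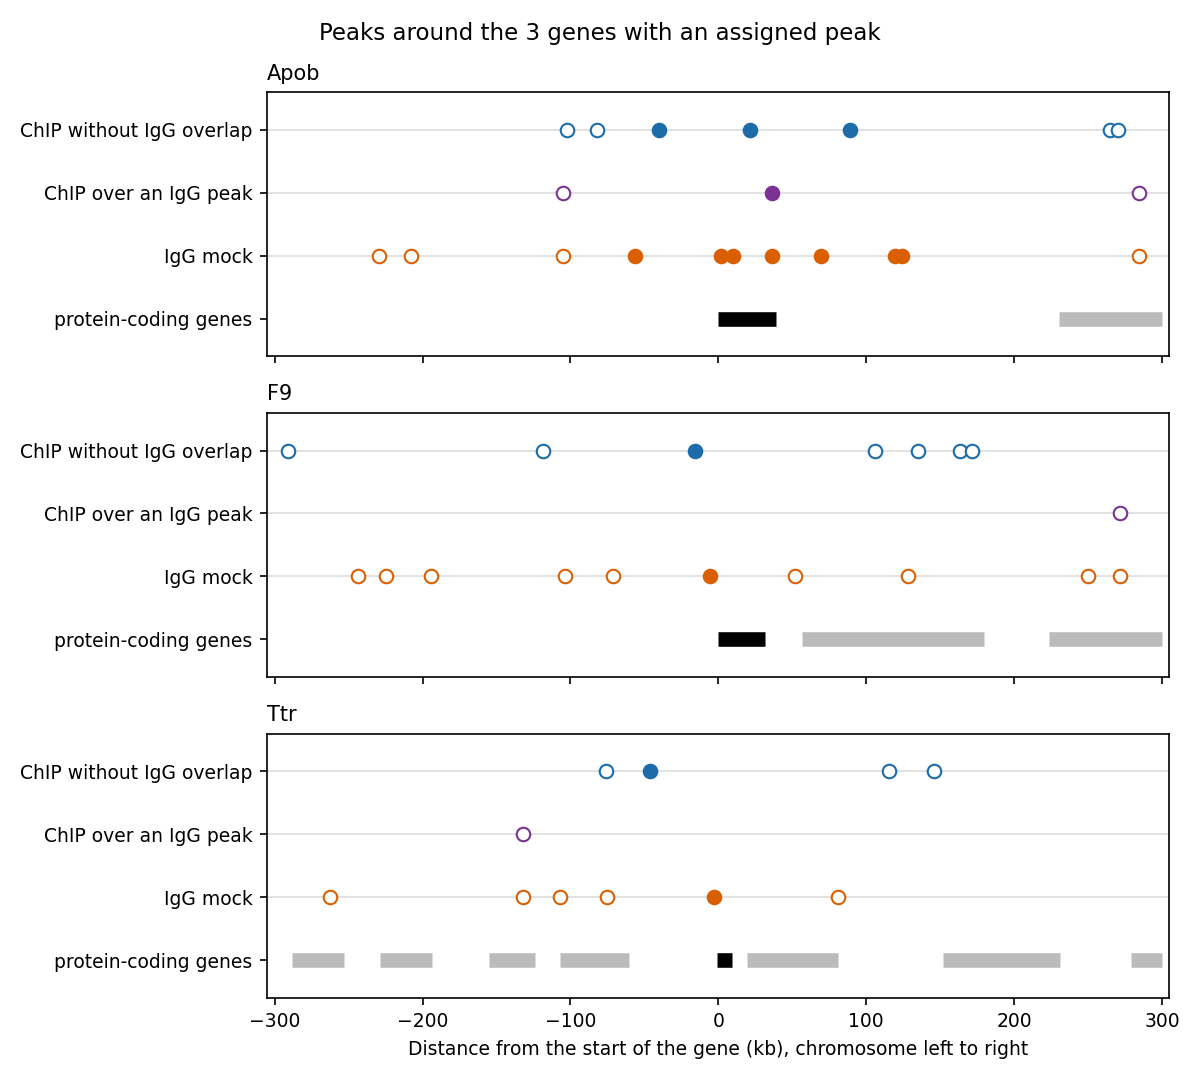
Positions of peaks within 300 kb of the starts of Apob, F9 and Ttr (x axis, kb from the start), with 1 row for each kind of peak and 1 for protein-coding genes (black, the gene named in the panel; grey, other genes). Filled circles are peaks assigned to the named gene and open circles peaks assigned to another gene; Apob has filled circles in all 3 rows, and F9 and Ttr have 1 filled circle in the ChIP-specific row and 1 in the IgG row.

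F9 encodes coagulation factor IX, whose loss causes haemophilia B. It was assigned 1 ChIP-specific and 1 IgG peak, both intergenic and both upstream. The ChIP-specific peak (chrX:59983476-59983699, 225 bp, FDR 0.0198) was 15877 bp from the TSS. The IgG peak (chrX:59993576-59993774, 200 bp, FDR 0.0169) was nearer, at 5789 bp, and 9877 bp separated the 2 peaks. The FDR of the ChIP-specific peak was the highest among the ChIP peaks of the 8 genes, and 63.7% of all ChIP-specific peaks had an FDR at or below it. The gene body held 0 peaks of either kind. Peaks were dense on the X chromosome as a whole, with 8.71 per Mb in the ChIP-specific list and 11.05 in the IgG list, where all chromosomes together had 5.32 and 6.29.

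Ttr encodes transthyretin, a carrier of thyroxine and of retinol-binding protein. Its 1 ChIP-specific peak (chr18:20619051-20619274, 225 bp, FDR 0.0133) and its 1 IgG peak (chr18:20662251-20662449, 200 bp, FDR 0.0029) were classed as intron. Both lay upstream of the gene, at 46088 and 2900 bp from the annotated TSS, and inside the noncoding gene Gm16090. The intron class thus refers to another transcript than that of Ttr. A second ChIP-specific peak within 100 kb was assigned to the neighbouring desmoglein gene Dsg2 (chr18:20589001-20589299, FDR 0.0088). The body of Ttr held 0 peaks of either kind.

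At all 3 genes with assigned peaks, the peak nearest to the start of the gene (RefSeq for Apob and F9, as annotated for Ttr) was an IgG peak. For Apob the nearest ChIP and IgG peaks were 21648 and 1735 bp from the start, for F9 15877 and 5789 bp, and for Ttr 46088 and 2900 bp. The share of all genes with an IgG peak nearest was not computed. The 3 genes were chosen with their peaks known, so nothing is read from this order.

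Alb and Afp, which encode serum albumin and its fetal relative alpha-fetoprotein, lie side by side on chromosome 5 and were the genes farthest from any ChIP peak. The bodies of both lay in a stretch of 582 kb without a ChIP peak. The ChIP peak nearest to the start of Alb (chr5:90177001-90177199, FDR 0.0135) was 283770 bp upstream and was assigned to Cox18. The one nearest to Afp (chr5:90759451-90759649, FDR 0.0152) lay 268836 bp downstream, in an exon of the chemokine gene Cxcl5. The nearest IgG peak to both (chr5:90668401-90668524, FDR 0.0364) was intergenic and assigned to Rassf6, 177748 bp from the start of Afp and 207592 bp from that of Alb. Within 100 kb of the 2 gene bodies there were 0 ChIP and 0 IgG peaks. Measured from the gene body instead of the start, the ChIP peak nearest to Alb was the one in Cxcl5, at 282849 bp. Of all protein-coding genes, 10.2% had their nearest ChIP peak farther from the gene body than that.

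Fga and Fgb encode the alpha and beta chains of fibrinogen, the precursor of fibrin, and lie on chromosome 3 beside Fgg, the gene of the gamma chain. Peaks were near these genes but were assigned elsewhere. A shared ChIP peak (chr3:83016701-83016974, 275 bp, FDR 0.0088) lay between Fgg and Fga, 9316 bp upstream of the start of Fga, and was assigned to RP24-180K20.1, at -8349 bp from the TSS of that gene. The IgG peak at this place (chr3:83016726-83016949, FDR 0.00155) lay within it. The nearest ChIP-specific peak (chr3:83004201-83004449, 250 bp, FDR 0.00956) was 21828 bp upstream of Fga and was assigned to Fgg, 3399 bp upstream of its TSS, inside the noncoding gene Gm30097. For Fgb, which is transcribed from the opposite strand, the same 2 ChIP peaks were 33026 and 45538 bp downstream of the start. The bodies of Fga and Fgb held 0 peaks, while 7 ChIP peaks lay within 100 kb of Fgb and 5 within 100 kb of Fga, 5 of them counted for both. The 2 genes thus largely share their neighbouring peaks.

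Tat, whose enzyme starts tyrosine breakdown and is induced by glucocorticoids in liver, had 1 ChIP and 1 IgG peak within 100 kb. The ChIP peak was ChIP-specific (chr8:109899951-109900274, 325 bp, FDR 0.023), lay 90324 bp upstream of the RefSeq start within Phlpp2 and was assigned to Gm16349. The IgG peak (chr8:110079651-110079874, FDR 0.00779) was 89326 bp downstream, at the promoter of Zfp612. The 2 kinds of peak were thus about equally far from Tat.

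**Figure D2:**
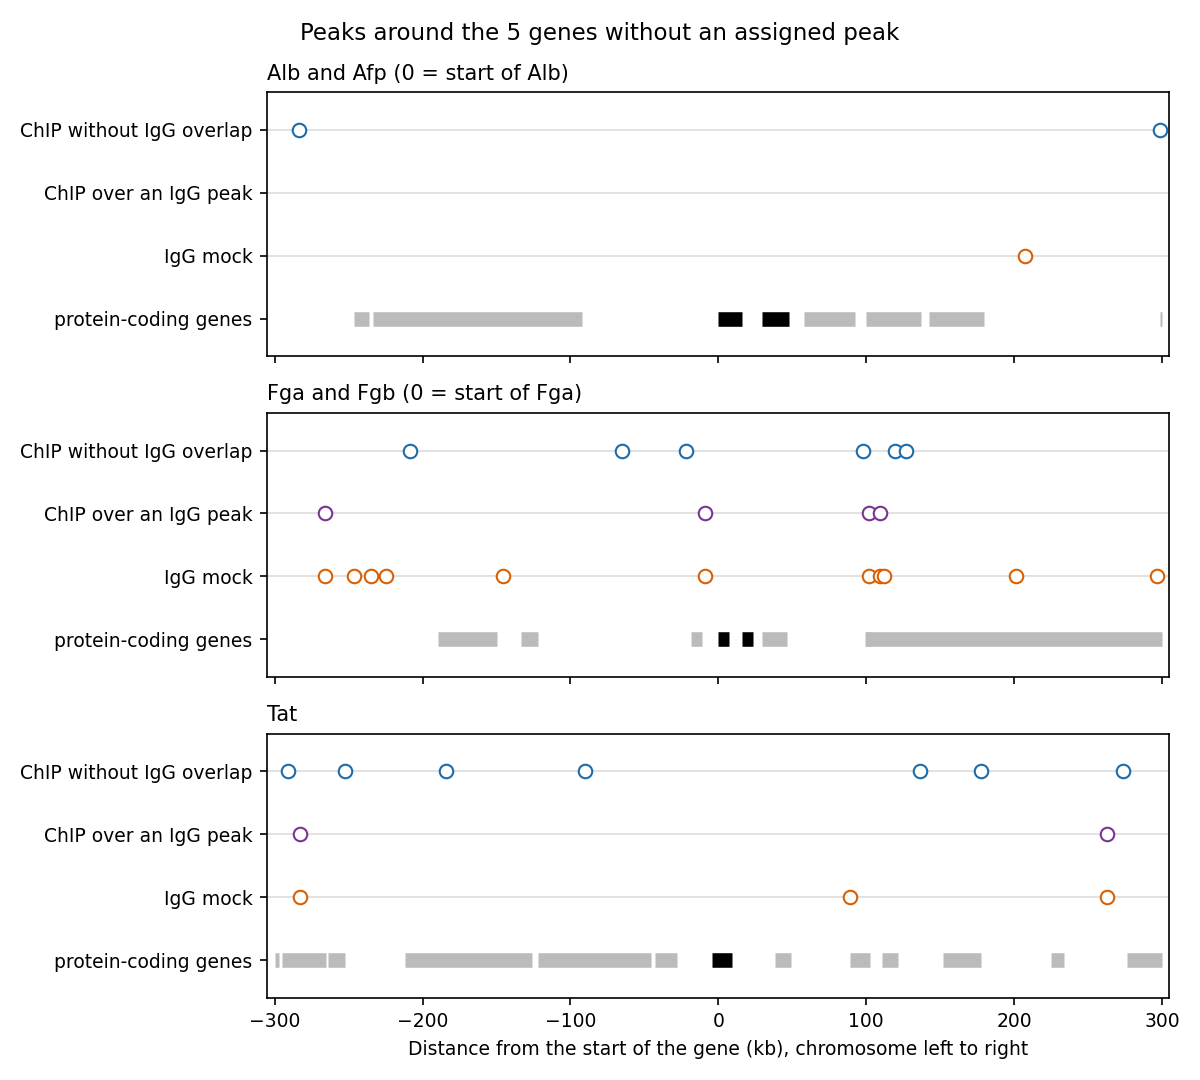
The same map for the 5 genes without an assigned peak, with kb from the start of Alb, Fga or Tat on the x axis, left to right along the chromosome, and the rows and colours as for the genes with peaks. All circles are open; the panel of Alb and Afp shows 2 ChIP peaks and 1 IgG peak, and the panel of Fga and Fgb shows a shared ChIP peak 9.3 kb before Fga.

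In all, 15 peaks were assigned to the 8 genes: 5 ChIP-specific, 1 shared ChIP and 9 IgG. The ChIP-specific peaks comprised 3 intergenic and 2 intronic ones, the shared peak was intronic, and the IgG peaks comprised 5 intergenic, 3 intronic and 1 at a termination site. Over the whole ChIP-specific list, 57.2% of annotated peaks were intergenic, 30.8% intronic and 5.52% at promoters. The median annotated distance to a TSS was 40161 bp for the 5 ChIP-specific peaks and 10071 bp for the 9 IgG peaks, against 30846 and 34550 bp over the whole lists. With Apob supplying 3 of the 5 and 7 of the 9, these medians describe mostly 1 gene.

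The FDRs of the 5 ChIP-specific peaks ran from 0.0086 to 0.0198 with a median of 0.0133, close to the median of 0.0146 for all ChIP-specific peaks. In the whole list, 162 had an FDR of 0 as printed, and none of these was assigned to the 8 genes. The ChIP-specific peak in the intron of Apob had the lowest FDR of the 5, and 10.2% of the ChIP-specific list was at or below it. The FDRs of the 9 IgG peaks ran from 0 to 0.0423, with a median of 0.0029 against 0.00845 for their whole list. FDRs of the ChIP and IgG lists come from separate calls, so their sizes were not compared.

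**Figure D3:**
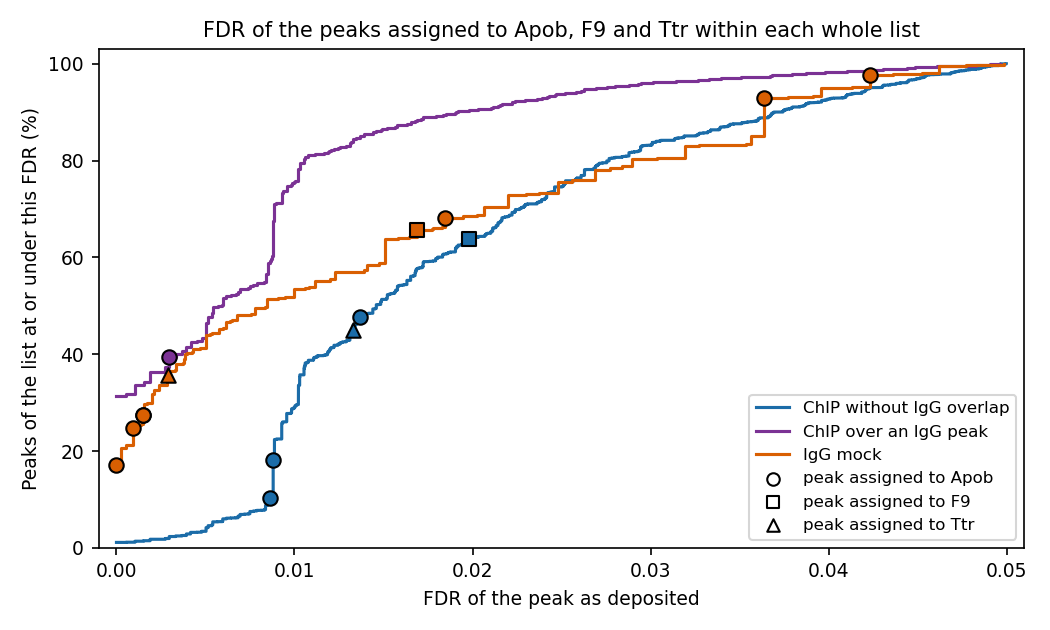
Cumulative percent of peaks (y axis) at or under each deposited FDR (x axis) for the ChIP-specific, shared ChIP and IgG lists, with the peaks assigned to Apob (circles), F9 (squares) and Ttr (triangles) marked on the curve of their list. The 5 ChIP-specific peaks lie between 10.2% and 63.7% of their list.

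Read against all protein-coding genes, 3 of 8 genes had a ChIP-specific peak assigned, and so had 17.5% of 21887 genes. For any ChIP peak the number was 3 of 8 against 22.0%, for a shared ChIP peak 1 of 8 (Apob) against 8.88%, and for an IgG peak 3 of 8 against 17.0%. The genes with a ChIP-specific and those with an IgG peak were the same 3. The genes were chosen with the peaks of these data known, so the shares are given as background and nothing is read from them. The position of peaks relative to gene bodies gave lower counts. Within 5 kb of the body, 1 gene (Apob) had a ChIP-specific peak, against 16.8% of all genes, and 2 genes (Apob and Ttr) had an IgG peak, against 15.9%. With an FDR of at most 0.01, Apob alone kept an assigned ChIP-specific peak, namely the intronic and the upstream one.

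The genes with peaks differed in how much sequence they have to themselves. Surroundings were taken as the gene body and the distance to the midpoint towards the next protein-coding gene in the RefSeq table on each side. They measured 1435812 bp for Apob, a size that 0.914% of genes exceeded, and 250908 bp for F9, against a median of 51389 bp over all genes. The value was 68877 bp for Alb, 45096 bp for Ttr, 40299 bp for Tat, 30271 bp for Afp, 17333 bp for Fga and 14765 bp for Fgb. All genes were ordered by this size and cut into 5 groups of equal number. A ChIP-specific peak was assigned to 4.80% of genes in the group with the smallest surroundings, which held Fga and Fgb. The share was 12.2% in the middle group, which held Alb, Ttr and Tat, and 42.3% in the group with the largest, which held Apob and F9. The corresponding IgG shares were 4.36%, 11.7% and 42.8%. The part of the surroundings in the assignments to the 8 genes was not tested.

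Whatever gene a peak was assigned to, the distance from the gene body to the nearest ChIP-specific peak was 0 bp for Apob, 15630 bp for F9, 21704 bp for Fga, 37797 bp for Fgb, 44935 bp for Ttr, 85804 bp for Tat, 250544 bp for Afp and 282849 bp for Alb. The median over the 8 genes was 41.4 kb, against 89.7 kb over all protein-coding genes. The corresponding medians for IgG peaks were 17.3 and 99.5 kb. Alb and Afp were the 2 genes of the 8 beyond the genome median in both lists. The windows of 100 kb around the 8 genes, 1.37 Mb with neighbours merged, had a density of 9.52 per Mb in the ChIP-specific list and of 13.9 in the IgG list. All chromosomes together, stretches far from any gene included, had 5.32 and 6.29 per Mb. The genes were chosen with their peaks known, and the difference was not tested. The loci ranged from 0 of either kind at Alb and Afp to 17.9 ChIP-specific peaks per Mb at Fga and Fgb and 29.3 IgG peaks per Mb at Apob.

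**Figure D4:**
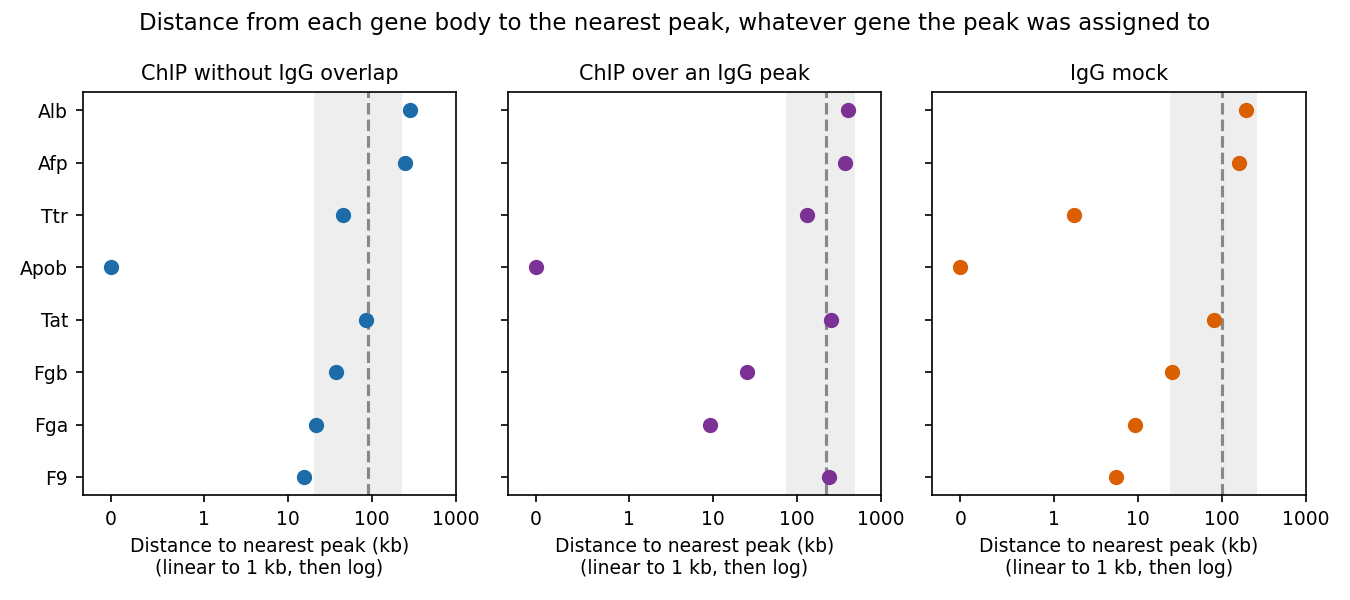
Distance in kb (x axis, linear to 1 kb and logarithmic beyond) from the body of each of the 8 genes to the nearest ChIP-specific, shared ChIP and IgG peak, 1 point per gene and list. The dashed line marks the median and the grey band runs from the 0.25 to the 0.75 quantile of 21887 protein-coding genes, and Alb and Afp lie right of the median in all 3 panels.

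Each combination of lists was found at many other genes. The 5 genes without a peak shared it with 16071 of the other 21886 genes (73.4%). Apob, with all 3 kinds of peak, had the combination of 968 other genes (4.42%), and F9 and Ttr, with a ChIP-specific and an IgG peak, had that of 779 (3.56%).

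Other hepatocyte genes, 81 in the RefSeq table, put the 8 in context. Of these, 22 (27.2%) had an assigned ChIP-specific peak, 14 (17.3%) had one from IgG, and 52 had none in any list. A shared ChIP peak was assigned to 4, namely F11, Plg, Pros1 and Otc. Over all protein-coding genes the shares were 17.5% for ChIP-specific, 17.0% for IgG and 8.88% for shared ChIP peaks, and the difference from these was not tested. Beside Apob, 1 of 11 apolipoprotein genes had a ChIP-specific peak, Apoc2, an activator of lipoprotein lipase (termination site, 908 bp from the TSS, FDR 0.0148). Beside F9, 2 of 15 genes of coagulation had a ChIP-specific peak, namely F10 (factor X, 8874 bp, FDR 0.0102) and F2 (prothrombin, intron, 9795 bp, FDR 0.0108). IgG peaks were assigned to 4 of the 15, F11, Klkb1, Plg and Pros1, and 3 of these (F11, Plg and Pros1) also had a shared ChIP peak. Of the albumin family, Gc, the vitamin D-binding protein, had an intergenic one at 118998 bp, and Afm had none. Among carriers in plasma beside Ttr, 2 of 8 did, Serpina6 and Serpina7, which bind glucocorticoids and thyroxine, and 1 of the 8, the retinol carrier gene Rbp4, had an IgG peak, at its promoter (36 bp, FDR 0.022). Among enzymes of amino acid breakdown beside Tat, 5 of 13 did, the nearest being a promoter peak of Gls2, a glutaminase (75 bp upstream, FDR 0.0343), and a peak in an intron of Hgd (annotated at 1087 bp from a TSS, FDR 0.0135). IgG peaks were assigned to 4 of these 13, and 3 of the 13 had both kinds. Protease inhibitors had 4 of 11, with Pzp the nearest (1617 bp upstream), and complement and acute phase genes 1 of 8, Crp (2980 bp upstream). No IgG peak was assigned to a gene of these 2 groups, to the 11 apolipoprotein genes beside Apob, or to Gc or Afm. In the body or within 5 kb of it, 2 of the 11 protease inhibitor genes had an IgG peak.

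Among hepatocyte transcription factors, 5 of 12 genes had a ChIP-specific peak, 5 had one from IgG, and 4 had both. Among the 5, the shortest distances to a TSS were those of exonic peaks at Onecut1 (491 bp, FDR 0.0158) and Cebpa (732 bp, FDR 0.00478), which encode the liver factors HNF6 and C/EBPα. Each also had an IgG peak near the TSS, 4 bp from it at Onecut1 (FDR 0.0423) and 1406 bp at Cebpa (FDR 0.0151).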

How the data were processed

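Reads were aligned to mm10 with BWA and peaks annotated with HOMER, versions not given, per the submitters' processing notes. Neither the peak caller nor the way the 3 ChIP libraries became a single list is given in the sources used here. Each peak carries an FDR (a q-value) deposited by the authors, printed to 6 decimals and under 0.05. The peak score deposited by the authors in the HOMER tables was equal to the peak length in bp for all annotated peaks. Peak lengths were multiples of 25 bp. All 5 libraries carry the same antibody label, so groups came from the titles.

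From these lists, overlaps (1 bp or more), distances and counts were computed with Python 3.11.15, numpy 2.4.6, pandas 2.3.3 and scipy 1.17.1, and drawn with matplotlib 3.10.9. The interval code was tested on simulated data. Coordinates are those of the deposited annotation (mm10). Gene bodies came from the RefSeq table of GRCm38.p6, which matched 77.8% of annotated ChIP-specific peaks by symbol or older symbol. Starts came from the RefSeq promoter table for 7 genes and from the annotated distances for Ttr. Members, context genes and rules were chosen with earlier results of these data known. All 8 genes are named in every case, as are the genes of the nearest peaks and of context genes (up to 3 per group, nearest TSS first). No statistical test was run. Alternatives changed the FDR threshold, overlap, distance limit, gene assignment and window.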

Additional observations from a re-analysis of the deposited data

How the results depend on the processing

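Of 35 alternative values, 17 stayed within 1.5 times the reported count or distance, or within the 95% Wilson interval of a share, and 18 did not. With an FDR of at most 0.01, 1 gene (Apob) was nearest to a ChIP-specific or any ChIP peak, 2 ChIP-specific and 5 IgG peaks were left, the median distance was 26598 bp, and 7.67% and 12.01% of all genes had a peak of the respective list. With an IgG peak over at least 50% of a ChIP peak required for sharing, the ChIP-specific share of all genes was 18.1%. Within 100 kb of the TSS, the shares were 16.8% and 16.5%. With the nearest RefSeq protein-coding TSS, in a table that held 17492 genes and 7 of the 8, the peaks numbered 19 and 32, since peaks deposited under 1700101O22Rik and predicted genes passed to Apob and F9, the median distance was 555202 bp and the shares were 26.7% and 25.8%. In the gene body alone, 1 gene had an IgG peak. Within 100 kb of the body, ChIP-specific peaks were found at 6 genes and IgG peaks at 6. Over all protein-coding genes the median distance from the body was 89.7 kb for ChIP-specific and 99.5 kb for IgG peaks. Most genes thus also had each kind within 100 kb. No paired analysis was possible because the lists hold each antibody as a whole, and for the same reason no library could be left out. Counts of peaks are small and depth is unknown.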

Other observations

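Peaks beside the 8 genes lay at several neighbours of other function. Next to the fibrinogen cluster, Dchs2, which encodes a large cadherin, had a ChIP-specific peak with an FDR printed as 0, at -3736 bp from its TSS (chr3:83124026-83124399, 375 bp), and a shared ChIP peak in an exon 202 bp downstream (FDR 0.00872). This upstream peak had the lowest FDR of the ChIP peaks within 100 kb of the 8 genes. Beside F9 lies Mcf2, which encodes a guanine nucleotide exchange factor. Within 100 kb of the body of F9, Mcf2 had an intronic ChIP-specific peak (chrX:60105151-60105424, FDR 0.00885) and an intronic IgG peak (FDR 0.00618). Farther out, within 300 kb of the start of F9, Mcf2 had further ChIP-specific peaks (FDRs 0.0246, 0.0183 and 0.0178) and no further IgG peak. Within 100 kb of the body of Ttr, the desmosome gene Dsg2 had an intronic ChIP-specific peak and an exonic IgG peak. B4galt6 had an exonic IgG peak there, 129 bp downstream of its TSS. Farther out, within 300 kb of the start of Ttr, B4galt6 also had a ChIP-specific peak (FDR 0.0298). Dsg2 had a further IgG peak there, with an FDR printed as 0.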
